A study of Bos taurus with 8 samples.

Results

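CXCL9, CXCL10 and CXCL11 are chemokines that share 1 receptor, CXCR3. Their transcript levels were examined in endometrium of 8 Bos taurus cows, with 1 one-colour array per cow. These are 4 of the 17428 gene symbols on the array design, carried by 7 of its 43653 noncontrol probes: 2 for CXCL9, 3 for CXCL10, 1 for CXCL11 and 1 for CXCR3. The genes were picked by symbol, with their treatment difference already known, so that difference is described below and not tested. Day 0 was the day of standing estrus. On day 1 both uterine horns of each cow received 25 mL of fluid with methylglyoxal at 0 mM (4 cows) or 5 mM (4 cows). A biopsy of endometrium was taken on day 7 from the horn next to the ovary that bore the corpus luteum. Methylglyoxal is a reactive dicarbonyl formed as a by-product of glycolysis that glycates proteins. The 0 mM cows had the same injection without it; the labels do not name the carrier fluid, breed or age, and each array holds RNA of a different cow.

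The 3 ligands are made by epithelial, stromal, endothelial and myeloid cells that have been exposed to interferon gamma, with help from type I interferon and from NF-kB. They bind CXCR3, a G protein-coupled receptor of activated T cells and natural killer (NK) cells, and draw those cells into tissue, where the interferon gamma that they release induces more ligand. In the ruminant uterus CXCL9 and CXCL10 also respond to interferon tau, the pregnancy signal of the trophoblast.

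Between 68.3% and 73.2% of noncontrol probes were well above background on each array, no spot was saturated, and precision is limited by there being 4 arrays a group. Values are log2 processed signals minus the log2 of the same array's 75th percentile, so 0 is the 75th percentile. Differences are 5 mM minus 0 mM. Checked against markers of the labelled tissue, epithelial KRT19 and PAX8 and stromal HAND2 were well above background on all 8 arrays. The arrays differed in tissue makeup, however. The mean of 15 smooth muscle genes, relative to the 8-array mean, was 1.23 in 0 mM replicate 1, 2.39 in 5 mM replicate 1 and 1.44 in 5 mM replicate 3, and between -1.53 and -0.80 in the other 5. The mean of 16 epithelial genes was -3.29 in 5 mM replicate 1 and between 0.33 and 0.83 in the other 7.

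The oligonucleotides behind the values are 60 bases long, and 5 of the 7 are shown because they define which stretch of each transcript was read. Probes of a gene are numbered from the brightest, and capitals mark the 21 bases that CXCL10 probes 2 and 3 have in common:

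CXCL9 probe 1: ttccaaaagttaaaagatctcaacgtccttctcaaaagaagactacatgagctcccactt
CXCL10 probe 2: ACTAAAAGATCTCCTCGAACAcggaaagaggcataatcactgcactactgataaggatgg
CXCL10 probe 3: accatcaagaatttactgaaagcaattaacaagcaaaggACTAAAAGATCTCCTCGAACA
CXCL11: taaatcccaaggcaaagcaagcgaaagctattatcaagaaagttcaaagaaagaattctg
CXCR3: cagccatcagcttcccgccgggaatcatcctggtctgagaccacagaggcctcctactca

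In the HGSC Btau_3.1 build, as the array files give it, the 3 ligand genes lie close together on chromosome 6. CXCL9 probe 1 spans chr6:94105453-94105512 and probe 2 chr6:94104348-94104407. CXCL10 probe 1 spans chr6:94129412-94129471, probe 2 chr6:94129878-94129937 and probe 3 chr6:94129917-94130405. CXCL11 has its probe at chr6:94147023-94147318, and CXCR3 at chrX:48706602-48706661. The spans of CXCL10 probe 3 and of CXCL11 exceed the probe's length by 429 and 236 bases, so these oligonucleotides are listed over discontinuous stretches of genome. CXCL9 and CXCL10 probes are listed in descending and the CXCL11 probe in ascending coordinates. No annotation of that build was used here, so exon and untranslated region are not given. CXCL10 probes 2 and 3 share sequence and are not independent readings of the gene.

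CXCL9, the ligand most closely tied to interferon gamma, had the largest difference of group means on all 8 arrays. That order does not hold under every setting: with normexp CXCL9 and CXCL10 differed by -1.36 and -1.37, and within slide 2 and, by CXCL10 probe 2, on the 5 arrays low in smooth muscle genes the CXCL10 difference was the larger. With probe 1 the 0 mM cows read -1.47, -0.80, -2.72 and -2.07 in replicates 1 to 4, and the 5 mM cows -5.60, -2.75, -4.34 and -3.19. On the linear scale these were 162 to 677 intensity units without methylglyoxal and 21.6 to 154 with it, all well above background. Every 5 mM cow was below every 0 mM cow, but the highest 5 mM value (replicate 2) and the lowest 0 mM value (replicate 3) were only 0.024 apart. Group means were -1.76 ± 0.82 and -3.97 ± 1.28 (SD, n = 4), a difference of -2.21 ± 0.67 (SE), or 4.61-fold lower with 5 mM. This difference was the 39th lowest of the 31108 probes tested. Probe 2 read between -8.08 and -6.91 in 0 mM cows and between -8.90 and -8.49 in 5 mM cows. It was well above background on 1 array, that of 0 mM replicate 2, the cow with the highest CXCL9 by probe 1 as well, so no fold is given for it.

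CXCL10, the interferon-inducible ligand that type I interferon and NF-kB also drive, was the ligand with the brightest probes, and those 2 probes gave like differences. Probe 1 read 1.34, 1.46, 0.41 and 0.97 in 0 mM replicates 1 to 4 and -1.32, -0.36, 0.019 and 0.092 in 5 mM replicates 1 to 4. The groups did not overlap and were 0.31 apart at their nearest, and 5 mM replicate 1 stood lowest. Means were 1.04 ± 0.47 and -0.39 ± 0.65 (SD, n = 4), a difference of -1.43 ± 0.37 (SE), or 2.70-fold lower. Probe 2 read -0.56, -0.21, -1.34 and -0.80 without and -3.29, -2.24, -1.76 and -1.90 with methylglyoxal, a difference of -1.57 ± 0.38 and a nearest gap of 0.42. The third probe was well above background in 0 mM replicates 1 and 2 (-3.51 and -4.02) and 5 mM replicate 1 (-5.77). Its other 5 readings, -7.19 to -5.85, were not well above background, its groups overlapped, and it did not enter the test.

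CXCL11, the ligand with the strongest binding to CXCR3, was dim. It read -4.94, -4.86, -5.71 and -5.09 in 0 mM replicates 1 to 4 and -6.72, -6.21, -6.90 and -6.08 in 5 mM replicates 1 to 4. The intensities were 20.5 to 47.3 and 9.18 to 16.1 units. Again no 5 mM cow reached a 0 mM cow, with a gap of 0.37. Means were -5.15 ± 0.38 and -6.48 ± 0.39 (SD, n = 4), a difference of -1.33 ± 0.26 (SE). The probe was well above background on all 4 arrays without methylglyoxal and on 2 with it, so it entered the test through the 0 mM group and no fold is given. Its size depends on the background correction: with normexp, which adds an offset before taking logs, the difference was -0.24, against -1.36 for CXCL9 and -1.37 for CXCL10 probe 1.

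CXCR3, the receptor, was not well above background on any array. It read -7.69, -7.27, -7.40 and -7.03 in 0 mM replicates 1 to 4 and -8.20, -8.29, -6.86 and -7.69 in 5 mM replicates 1 to 4. The highest and the lowest reading both came from 5 mM cows, so the groups overlapped. The difference was -0.42, and -0.0069 with normexp, and no fold is given. Receptor transcript was therefore not measured here, and its level in either group is not known.

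**Figure D1:**
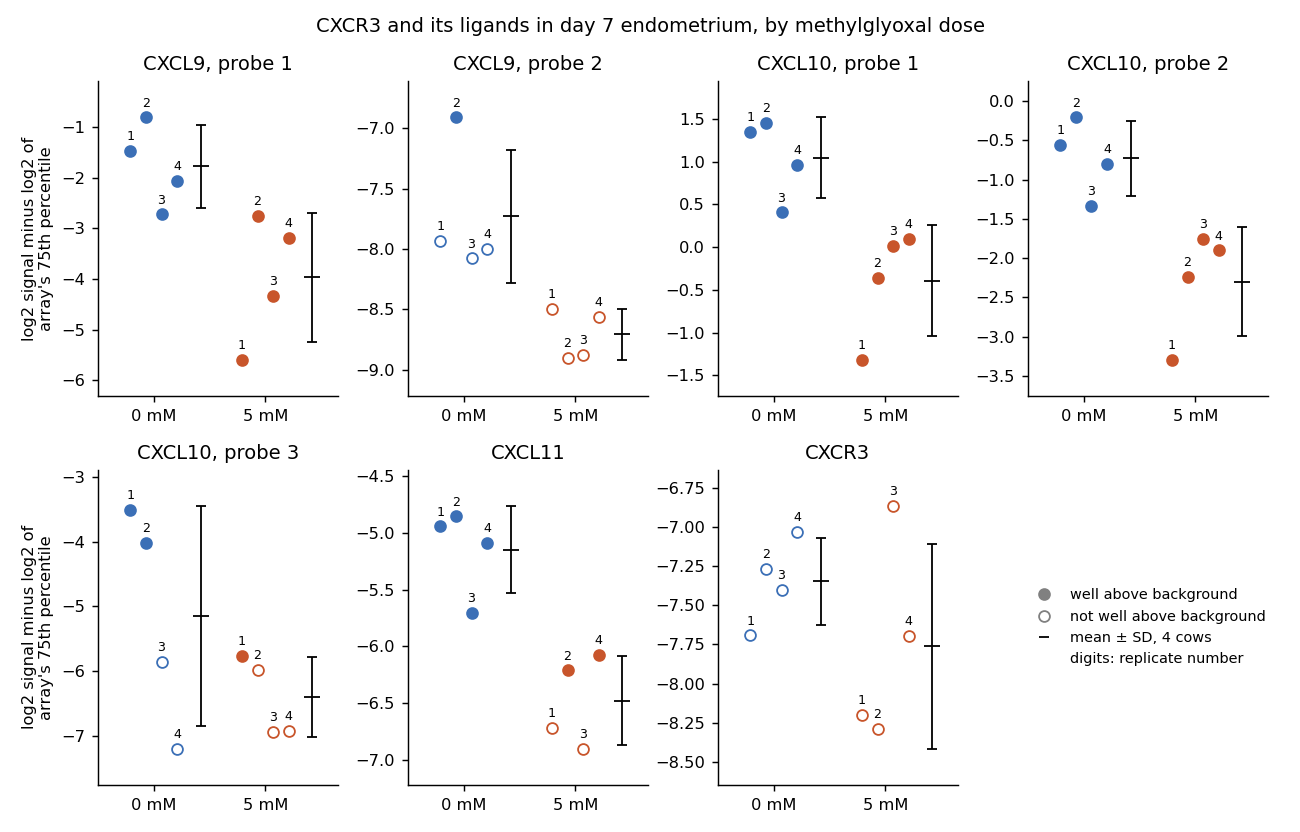
Log2 signal relative to the array's 75th percentile (y axis, a separate range in each panel) for the 7 probes, with 4 cows given 0 mM and 4 given 5 mM methylglyoxal (x axis). Filled points are well above background, open points are not, digits are replicate numbers and bars are mean ± SD. The groups overlap in CXCL10 probe 3 and CXCR3 and in no other panel; CXCL9 probe 2 has 1 filled point and CXCR3 has none.

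Of the 7 probes, 4 passed the filter on dim signals (well above background on at least 4 arrays): 1 of CXCL9, 2 of CXCL10 and that of CXCL11. All 4 were lower with 5 mM without overlap between groups, as were 163 of all 31108 tested probes (0.524%). All 4 were also at least 2-fold lower as measured, CXCL11 against 2 readings not above background, as were 1231 of the tested probes (3.96%). The genes were chosen with this comparison in view, so nothing is read from that count. With limma and p-values adjusted by Benjamini-Hochberg over all tested probes, 0 probes (0%) had an adjusted p under 0.05, and 595 (1.91%) had an unadjusted p under 0.05. Those with an unadjusted p under 0.05 that were also 2-fold lower or more numbered 103 (0.331%). The lowest adjusted p of any probe was 0.913.

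Slides carried 2 or 3 arrays each, with both groups on each. On slide 1, which held replicate 1 of both groups, CXCL9, CXCL10 probe 1 and CXCL11 differed by -4.13, -2.66 and -1.78. On slide 2, with 2 arrays of 0 mM and 1 of 5 mM, the differences were -0.98, -1.29 and -0.93. On slide 3, with 1 array of 0 mM and 2 of 5 mM, they were -1.70, -0.91 and -1.40. All of these values were below 0. Taking slide as a block gave -2.10, -1.53 and -1.33.

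Cows of the 0 mM group stood in the same order for all 4 tested ligand probes: replicate 2 highest, then 1, 4 and 3. In the 5 mM group the orders differed between ligands. CXCL9 and CXCL10 were lowest in replicate 1, whereas CXCL11 was lowest in replicate 3. After each group's mean was removed, CXCL9 correlated with CXCL10 over the 8 cows at r = 0.792 (exact two-sided permutation within groups, p = 0.0434) and Spearman's rho = 0.643 (exact p = 0.149). CXCL9 with CXCL11 gave r = 0.817 (exact permutation p = 0.0417) and rho = 0.833 (exact p = 0.0347). CXCL10 with CXCL11 gave r = 0.594 (exact permutation p = 0.167) and rho = 0.691 (exact p = 0.104). Without the 2 cows farthest from the median of the first gene, these r were 0.864, 0.920 and 0.043, so the last rests on those cows. Over the 18 relations computed, the adjusted p of the first 2 was 0.26 and of the last 0.334 for r, and 0.298, 0.296 and 0.296 for rho, so none passed. A slide holds too few arrays for a value of its own.

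**Figure D2:**
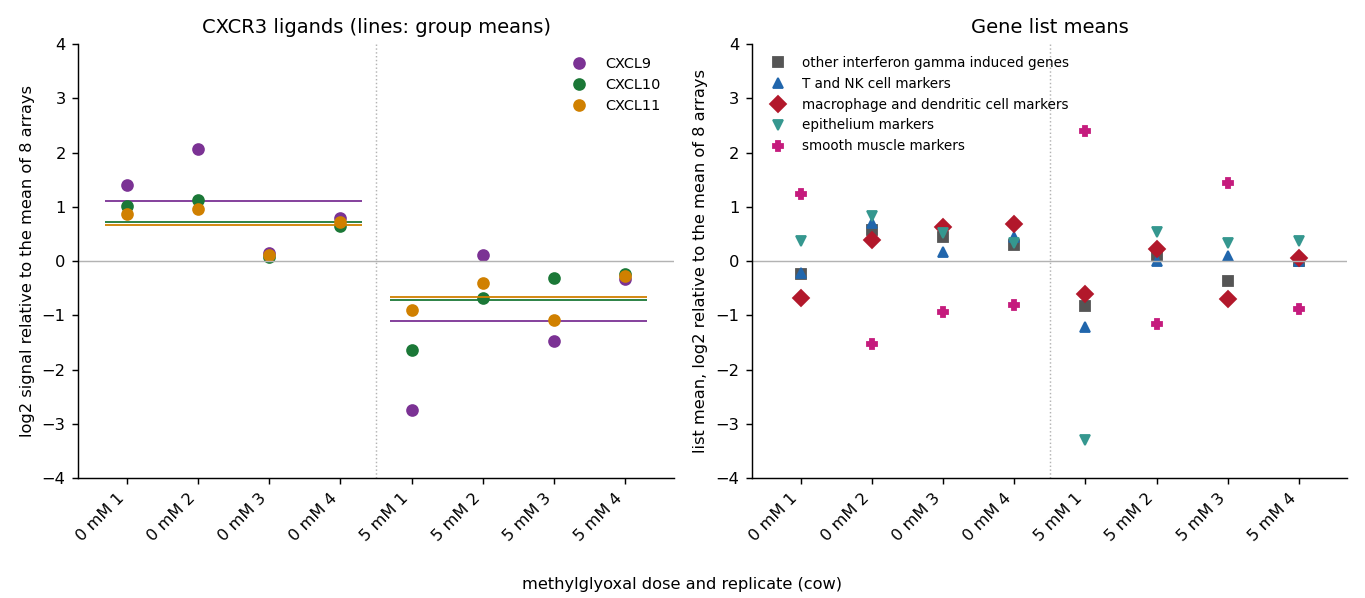
Left, log2 signal of CXCL9, CXCL10 probe 1 and CXCL11 relative to the mean of the 8 arrays, by cow, with lines at the group means. Right, the mean of 5 gene lists on the same scale. The 3 ligands coincide in 0 mM replicate 3, and in 5 mM replicate 1 CXCL9 is lowest while smooth muscle genes are highest and epithelial genes are at -3.29.

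Upstream of the ligands, both chains of the interferon gamma receptor had differences no larger than their standard errors, and the cytokine gene was near background. IFNG, the cytokine of T and NK cells, was well above background on 1 array, 0 mM replicate 2 (-5.27), the cow with the highest values of CXCL9, CXCL10 and CXCL11. Its other 7 readings, -8.64 to -6.92, were not well above background. The 2 receptor chains were bright in every cow: IFNGR1 differed by 0.15 ± 0.16 (SE) and IFNGR2 by 0.039 ± 0.23, and by 0.028 and -0.12 without 5 mM replicate 1. IRF1, a transcription factor that interferon gamma induces, differed by -0.58 ± 0.32, and by -0.29 without 5 mM replicate 1.

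Of 23 genes of this route on the array, 13 were measured, meaning that they passed the filter, and 9 of those had lower values with 5 mM. Their median difference was -0.33, and -0.11 without 5 mM replicate 1. Over all 13078 genes tested, 48.4% had lower values and the median difference was 0.010. IL12A, a subunit of the interleukin that primes T cells for interferon gamma (-1.04 ± 0.53), and IL18, which acts with it (-0.67 ± 0.37), were the members with the lowest p beside IRF1. Without 5 mM replicate 1 their differences were -0.70 and -0.33, and with normexp -0.34 and -0.52. JAK1, the kinase on IFNGR1, was the one measured member whose groups did not overlap, and it was higher with 5 mM by 0.14 ± 0.12. It was singled out after its values were seen. In either direction 219 of the 13078 genes (1.67%) had groups without overlap. TBX21, STAT4, EOMES and both IL-12 receptor chains, which mark or make the interferon gamma response of T cells, were among the 10 genes on the array that did not pass the filter.

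For the type I interferon and nucleic acid sensing route, 9 of 18 measured genes had lower values, with a median of -0.030, and -0.094 without 5 mM replicate 1. DHX58, a regulator of RNA sensing, was the member whose groups were apart: it read -2.60, -2.59, -2.80 and -2.59 without and -3.80, -2.90, -3.72 and -3.15 with methylglyoxal. The difference was -0.75 ± 0.22 (SE), with an adjusted p of 0.913 in limma. Lower values without overlap were seen in 76 of the 13078 genes (0.581%). DDX58, the RNA sensor also called RIG-I, differed by -0.31 ± 0.25 (-0.15 without that cow), and USP18, which restrains type I interferon signalling, by -0.42 ± 0.32, both with overlapping groups.

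Among 14 measured genes of NF-kB and its activators, 12 had lower values and the median was -0.13. TNF differed by -0.74 ± 0.41 (SE). It was -2.56 in 0 mM replicate 2 and between -5.10 and -4.08 in the other 7 cows. IL1A, which encodes interleukin 1 alpha, differed by -1.60 ± 0.97, and by -0.61 without 5 mM replicate 1, where its probe was not well above background. REL, a subunit of NF-kB, had the same pattern, with -1.01 ± 0.69, and -0.33 without that cow. With normexp TNF, IL1A and REL differed by -0.38, -0.37 and -0.20.

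Other genes that interferon gamma induces had mostly lower values in the 5 mM group. Of 21 measured, 18 were lower, and the median difference was -0.60, or -0.35 without 5 mM replicate 1. The list mean was -0.23 in 0 mM replicate 1 and 0.29 to 0.57 in the other 0 mM cows, and between -0.83 and 0.11 in the 5 mM cows, so the groups overlapped. BOLA-DRA, the alpha chain of an MHC class II molecule, read 3.18 to 4.19 without and 3.11 to 3.36 with methylglyoxal, a difference of -0.53 ± 0.22 (SE). GBP1, a guanylate-binding protein of cell-autonomous defence, differed by -0.68 ± 0.28, and its 3 other probes by -0.41, -0.54 and -0.34. NLRC5, the transactivator of MHC class I genes, differed by -0.95 ± 0.44, and by -0.62 without 5 mM replicate 1, but its second probe by 0.05. All 3 had an adjusted p of 0.913 in limma, and 0 of the 21 genes passed.

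**Figure D3:**
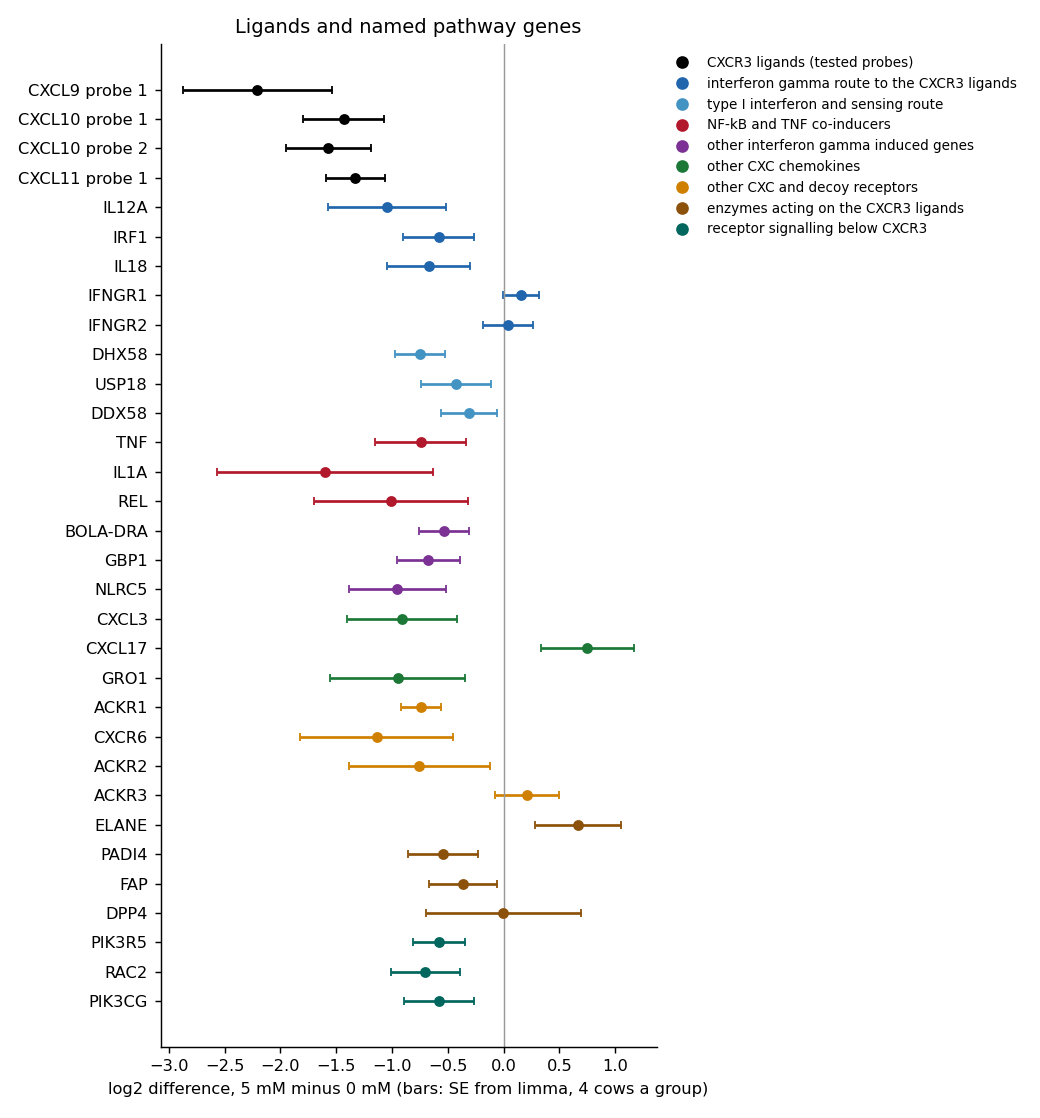
Log2 difference, 5 mM minus 0 mM (x axis), for the 4 tested ligand probes and the named genes of 8 lists (y axis), with bars of 1 SE from limma over 4 cows a group. CXCL9 lies at -2.21 and the other ligand probes between -1.57 and -1.33, while IFNGR1 and IFNGR2 lie at 0.15 and 0.039.

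Chemokines of the CXC family other than the CXCR3 ligands had values in both directions: among 10 measured, 4 were lower and 6 higher, with a median of 0.18. CXCL3 (-0.91 ± 0.50, SE) and GRO1 (-0.95 ± 0.60), both attractants of neutrophils, and the mucosal chemokine CXCL17 (0.75 ± 0.42) had the lowest p, and all had overlapping groups. CXCL3 and GRO1 were highest in 0 mM replicate 2, at 1.96 and -2.38. The rest of that group read -0.16 to 0.62 and -4.86 to -3.88. GRO1 differed by -0.55 without 5 mM replicate 1. With normexp CXCL3, GRO1 and CXCL17 differed by -0.79, -0.39 and 0.21. Of 5 measured receptors other than CXCR3, 4 had lower values. ACKR1, a chemokine-binding receptor of venules that does not signal, read -6.02, -5.28, -5.58 and -5.45 without and -6.30, -6.34, -6.44 and -6.22 with methylglyoxal. Its groups did not overlap, and 0.581% of all genes tested were lower without overlap. The difference was -0.74 ± 0.18, and with normexp it was -0.090. CXCR6, a receptor of tissue T cells for CXCL16, differed by -1.14 ± 0.68, and by -0.52 without 5 mM replicate 1. ACKR2, a scavenger of CC chemokines, differed by -0.75 ± 0.63, and by -0.27 with normexp. ACKR3, which takes up CXCL11 and CXCL12, differed by 0.21 ± 0.29, and by 0.39 without that cow.

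Enzymes that trim or modify the ligands after secretion had lower values in 6 of 8 measured genes, with a median of -0.28, and -0.097 without 5 mM replicate 1. DPP4, the peptidase that clips the amino terminus of all 3 ligands and turns them into poor agonists, differed by -0.0042 ± 0.69 (SE) and was well above background on 5 of 8 arrays. Its relative FAP differed by -0.36 ± 0.31. Without that cow these were -0.31 and -0.090. PADI4, which converts arginine in proteins to citrulline, differed by -0.54 ± 0.32, and the neutrophil protease ELANE by 0.67 ± 0.38. With normexp these were -0.12 and 0.19, and in the 0 mM group ELANE was well above background in 3 cows. Below the receptor, 8 of 14 measured signalling genes had lower values, with a median of -0.0090, and -0.062 without that cow. PIK3R5 (-0.58 ± 0.23) and PIK3CG (-0.58 ± 0.32), which encode the regulatory and catalytic subunits of the leukocyte lipid kinase, had overlapping groups. RAC2, a GTPase of blood cells, was lower with groups that did not overlap, as were 0.581% of all genes tested. It differed by -0.70 ± 0.31, and by -0.39 without that cow, but its other probe differed by 0.14.

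The cells that carry CXCR3 or make its ligands were followed with marker lists, and in bulk tissue fewer cells of a type and less RNA per cell cannot be told apart. T and NK cell genes had lower values in 20 of 24, with a median of -0.62, and -0.18 without 5 mM replicate 1. Their mean was -0.21, 0.70, 0.17 and 0.44 in 0 mM replicates 1 to 4 and -1.22, 0.012, 0.10 and 0.0074 in 5 mM replicates 1 to 4, so the groups overlapped. CD3G, a chain of the T cell receptor complex, differed by -1.01 ± 0.49 (SE), and by -0.65 without 5 mM replicate 1, the costimulator ICOS by -1.26 ± 0.55, and the T cell surface protein CD5 by -1.04 ± 0.46. In the 5 mM group ICOS was well above background in 3 cows and CD5 in 2. With normexp CD3G, ICOS and CD5 differed by -0.62, -0.47 and -0.26. CD3G was well above background in all 8 cows, so T cell transcript was measurable where CXCR3 was not.

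Macrophage and dendritic cell genes, from cells that are major makers of CXCL9, had lower values in 16 of 17, with a median of -0.50. That count was 14 to 16 when each cow was left out, 11 with the smooth muscle mean as a covariate and 6 within slide 1. In the list mean 0 mM replicate 1 (-0.67) stood with 5 mM replicates 1 and 3 (-0.60 and -0.70), below the other 5 cows. That cow was second highest of its group in every tested ligand probe. The dendritic cell factor BATF3 differed by -0.52 ± 0.18 (SE), the Fc receptor FCGR3A by -1.08 ± 0.52 and the complement gene C1QC by -1.18 ± 0.59, all with overlapping groups. FCGR3A differed by -0.57 without 5 mM replicate 1. B and plasma cell genes had lower values in 8 of 8, with a median of -0.98. Both figures include MS4A1, which passed the filter only through the 0 mM group, so nothing is read from them. TNFRSF13C, a B cell survival receptor, had groups without overlap, as did 0.581% of genes in that direction, and differed by -0.98 ± 0.30. MS4A1, which encodes the B cell surface protein CD20, exceeded background in every 0 mM cow and in 0 of the 4 given 5 mM, so it entered the test through the 0 mM group and its separation is not counted.

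Epithelial genes had lower values in 16 of 16 and a median of -1.11, but -0.11 without 5 mM replicate 1. CLDN3, a tight junction protein and the one member without overlap, named after its values were seen, read -6.74 in that cow, and -1.40 to -1.02 in the other 7. Of all genes tested, 0.581% were lower without overlap. Ciliated cell genes had lower values in 11 of 11, with a median of -0.78, and -0.33 without that cow. Smooth muscle genes had higher values in 13 of 15, and their list mean was -0.51 ± 1.20 without and 0.45 ± 1.75 (SD, n = 4) with methylglyoxal. Granulocyte, mast cell, endothelial and stromal genes had medians of 0.064, -0.17, 0.0031 and 0.042 (the last -0.083 without that cow), and 3 red blood cell genes one of 1.02. In every one of these lists the range of means in one group overlapped that in the other, and 0 members passed the limma test.

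Smooth muscle genes were followed further because their mean differed so widely between arrays, with overlapping groups. With the smooth muscle mean as a covariate CXCL9, CXCL10 and CXCL11 differed by -1.74, -1.31 and -1.22. Among the 5 arrays low in smooth muscle genes alone (3 of 0 mM and 2 of 5 mM, a choice made after seeing the data), they differed by -1.11, -1.08 and -0.93. On the same 5 arrays the median difference was -0.080 for epithelial genes, -0.42 for T and NK cell genes, -0.43 for macrophage and dendritic cell genes and -0.35 for the other interferon gamma induced genes. With 3 against 2 arrays these values carry no test. The part of tissue makeup in the ligand differences was not tested.

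Across cows, with group means removed, 4 marker lists were set against the ligands: T and NK cell, macrophage and dendritic cell, epithelial and smooth muscle genes. The epithelial list had the highest Pearson correlation with CXCL9 (r = 0.763, exact permutation p = 0.0278, adjusted p = 0.26, rho = 0.691 with exact p = 0.059 and adjusted p = 0.296) and r was 0.504 without the 2 farthest cows. For CXCL10 it was also the epithelial list (r = 0.772, exact permutation p = 0.128, adjusted p = 0.334, rho = 0.643 with exact p = 0.115 and adjusted p = 0.296), at 0.293 without them, so this relation rests on those cows. T and NK cell genes correlated with CXCL10 at r = 0.704 (exact permutation p = 0.0903, adjusted p = 0.334, rho = 0.691 with exact p = 0.0938 and adjusted p = 0.296) and at 0.918 without the 2 farthest. The 2 farthest differed by list. They were 5 mM replicates 1 and 2 for epithelial genes, and replicate 1 of both groups for T and NK cell and smooth muscle genes. Smooth muscle genes correlated with CXCL9 at r = -0.675 (exact permutation p = 0.134, adjusted p = 0.334, rho = -0.762 with exact p = 0.104 and adjusted p = 0.296) and at -0.785 without replicate 1 of both groups. So by rho, among these 4 lists, smooth muscle genes came first for CXCL9 and T and NK cell genes for CXCL10. The other interferon gamma induced genes were also set against the ligands and had a larger rho with CXCL9, 0.786 (exact p = 0.0764, adjusted p = 0.296). Their r with CXCL9 was 0.63 (exact permutation p = 0.153, adjusted p = 0.334), and 0.79 without replicate 1 of both groups. With CXCL10 and CXCL11 their r was 0.36 and 0.30. None of these 4 lists passed for any ligand, nor did the other interferon gamma induced genes. The other marker lists were not correlated with the ligands, and with 8 cows in 2 groups the smallest p that these 576 arrangements can give is 0.00174.

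**Figure D4:**
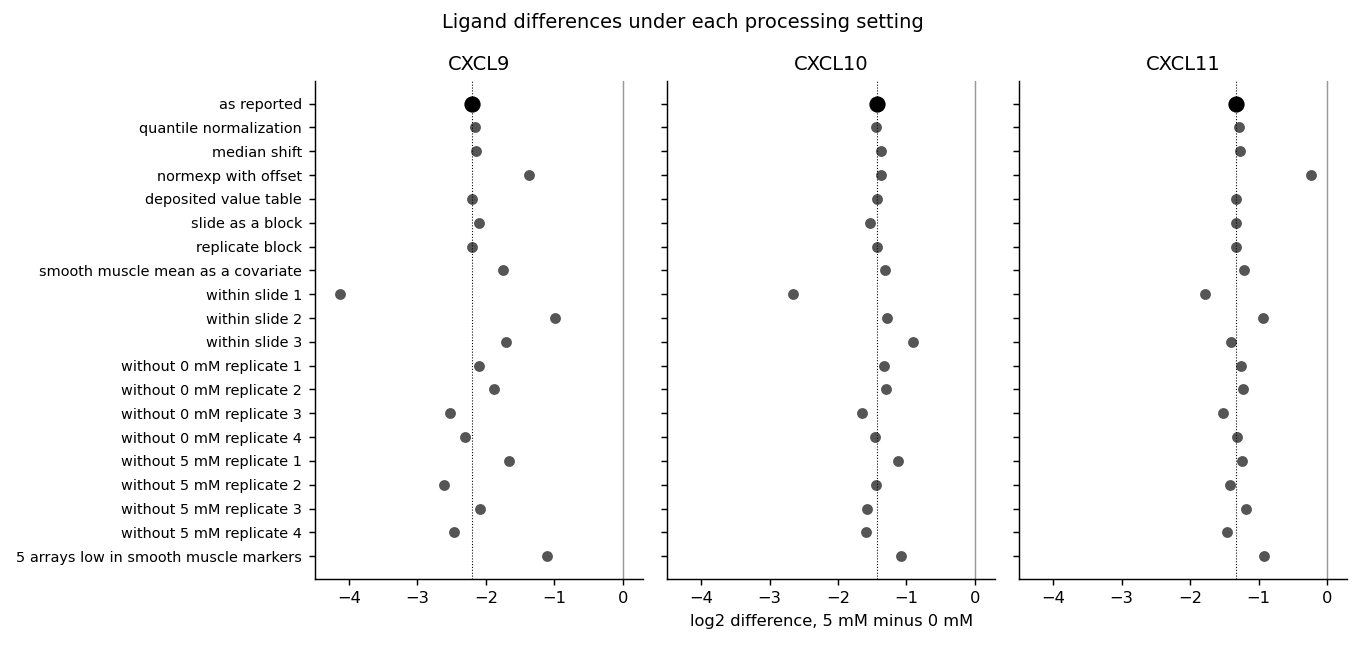
Log2 difference, 5 mM minus 0 mM (x axis), of CXCL9, CXCL10 probe 1 and CXCL11 under each processing setting or subset of arrays (y axis), with the reported value as a large point and dotted line. All points lie below 0; CXCL9 ranges from -4.13 on slide 1 to -0.98 on slide 2, and CXCL11 reaches -0.24 with normexp.

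The neighbours of the ligand genes had differences on both sides of 0. In gene order on chromosome 6 of the ARS-UCD2.0 assembly, SDAD1 and CXCL9 are followed by ART3, CXCL10, CXCL11 and NUP54. SDAD1, a ribosome assembly gene, differed by 0.10 ± 0.13 (SE), ART3, a member of the ADP-ribosyltransferase family that lies between CXCL9 and CXCL10, by -0.19 ± 0.18, and the nucleoporin NUP54 by 0.21 ± 0.18 (0.056 without 5 mM replicate 1). Farther out the lysosomal genes NAAA and SCARB2 differed by -0.44 ± 0.26 and 0.095 ± 0.18, and STBD1, a glycogen-binding protein, by 0.72 ± 0.60, and by 0.21 without 5 mM replicate 1. Of the 10 measured neighbours 4 had lower values, the median was 0.082, and 0 had groups without overlap. FAM47E and SHROOM3 were not measured.

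**Figure D5:**
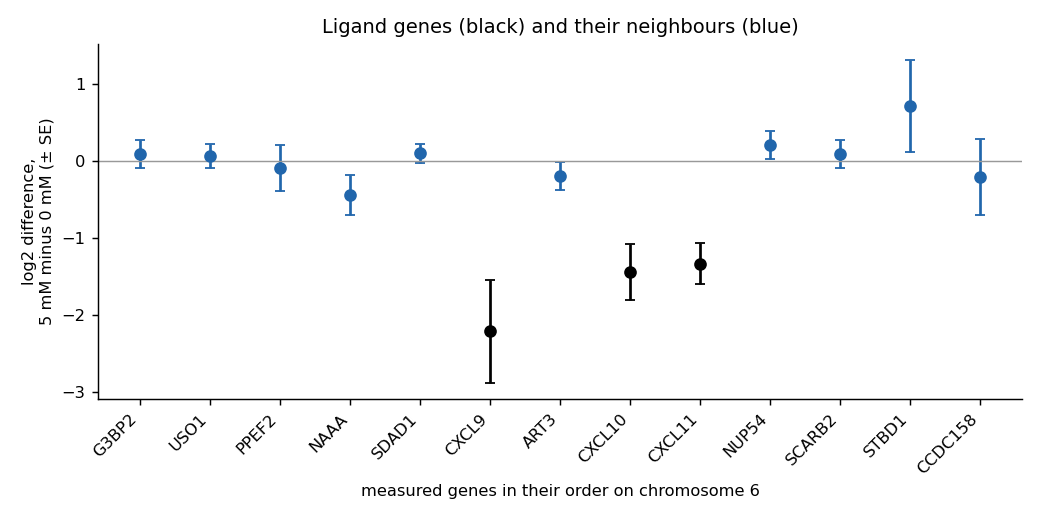
Log2 difference, 5 mM minus 0 mM, with bars of 1 SE (y axis), for CXCL9, CXCL10 and CXCL11 (black) and the 10 measured neighbour genes (blue) in their order on chromosome 6 (x axis, not to scale). The ligands lie between -2.21 and -1.33 and the neighbours between -0.44 and 0.72.

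The genes whose cow-to-cow pattern was most like each ligand were found over 12413 genes and 8 arrays, by Pearson correlation of deviations from group means. For CXCL9 they were ENKUR (0.989), SYPL1 (0.985), SMPD2 (0.984), FHAD1 (0.984) and GSTK1 (0.975). For CXCL10 they were ZNHIT3 (0.988), GLB1L3 (0.983), RPAIN (0.982), CCDC146 (0.976) and FBXW9 (0.964). For CXCL11 they were AKR1E2 (0.975), HEPACAM2 (0.973), the cilium regulator FOXJ1 (0.960), BBS12 (0.945) and DNAH1, a ciliary dynein (0.945). With so few arrays 137, 85 and 22 genes exceeded 0.9 for the 3 ligands in that order. No other ligand was among the 5 closest. For CXCL9, CXCL11 ranked 621st and CXCL10 811th; CXCL9 itself ranked 98th for CXCL11 and 539th for CXCL10. The differences of ENKUR (-0.52 ± 0.43, SE), ZNHIT3 (0.039 ± 0.12) and AKR1E2 (-0.18 ± 0.27) were smaller than those of the ligands that they resembled within groups.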

How the data were processed

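RNA of 8 cows was labelled with Cy3 and read on 8 one-colour Agilent arrays of design 023647, per the file headers, with Feature Extraction, whose version is 10.5.1.1 in the submitters' processing notes but 11.5.1.1 according to the headers. The deposited spot intensities had been background-subtracted and detrended on a linear scale, per the file headers. Outlier-marked spots and control spots were left out, and each log2 intensity had the log2 of its own array's 75th percentile subtracted, over 1032 to 1456 intensity units. The deposited value table holds log2 values that correlated at r of at least 0.9995 with these, centred per probe on the 8-array median; its column medians were -0.0156, -0.0233, 0.000881 and -0.00623 for 0 mM and 0.132, -0.00485, -0.011 and 0.0133 for 5 mM replicates 1 to 4. Its scale, centring and direction were settled by this, and it served as an alternative.

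Probes well above background on at least 4 of 8 arrays were tested (31108, with 461 missing values) in limma 3.58.1 (R 4.3.3; lmFit, eBayes, Benjamini-Hochberg, threshold 0.05). A gene's probe with the highest mean was used. Of 43653 probes 34970 had a symbol, 22205 by accession, 11018 by name, 372 by synonym and 1375 as the file gave it, through a RefSeq table of ARS-UCD2.0. The genes, the 20 lists and the tests were chosen with earlier results of these data known. Named genes are the 3 of each list with the lowest p, with IFNG, IFNGR1, IFNGR2, IRF1, DPP4, ACKR3 and the neighbours whatever their values, and the 5 genes closest to each ligand. Some of the genes this rule gives are described by their list only, and 1 that it gives is not reported here. The limma and permutation scripts were tested on simulated data. Alternatives were quantile and median scaling, normexp with an offset of 50, the value table, slide and replicate blocks, single slides, a smooth muscle covariate, other filters and eBayes settings, array weights, leaving out each cow and, chosen after seeing the data, the 5 arrays low in smooth muscle genes. The labels name 8 different cows, so replicate numbers were not used to pair them. Both cows of replicates 1, 2 and 4 shared a slide, and the within-group permutations take no account of slide.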

Additional observations from a re-analysis of the deposited data

Results flagged for a closer look

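In groups of 4 cows, 1 cow lay far from the other 3 by Dixon's test for 16 of 194 groups of values examined (8.25%), where chance alone gives about 1 in 20 groups. Among the ligand probes this held for CXCL9 probe 2, at -6.91 in 0 mM replicate 2 and -8.08 to -7.93 in the other cows of its group. The same cow was apart for TNF, at -2.56 against -4.30 to -4.08, and it was the cow with IFNG above background.

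In 5 mM replicate 1, the cow with the lowest CXCL9 and CXCL10, T and NK cell genes averaged -1.22 (others of the group 0.0074 to 0.10), epithelial genes -3.29 (others 0.33 to 0.53) and stromal genes 0.75 (others -0.25 to -0.11). KRT19, an epithelial keratin, was -0.17 there and 2.05 to 2.34 in the others, CXCR6 was -3.15 against -0.91 to -0.52, and GRO1 was -6.07 against -4.60 to -4.32.

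In 0 mM replicate 1, genes of the interferon gamma route averaged -0.38 (others 0.28 to 0.34), those of receptor signalling -0.23 (others 0.13 to 0.17), DDX58 was 0.22 (others 0.89 to 1.01) and SCARB2 4.16 (others 4.66 to 4.74), all lowest of the group, while the smooth muscle gene SYNM was highest at 0.56 (others -1.51 to -1.30). All tested ligand probes were second highest of the group in that cow.

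Single values apart in other cows were DHX58 at -2.80 in 0 mM replicate 3 (others -2.60 to -2.59), the red blood cell genes at -1.04 in the same cow (others -0.22 to -0.056) and CXCL17 at -5.10 in 5 mM replicate 2 (others -4.59 to -4.53). The part of these cows' tissue makeup in the ligand values was not tested beyond the covariate and the 5 arrays given above.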

How the results depend on the processing

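CXCL9, CXCL10 and CXCL11 were lower with 5 mM under all settings and subsets run, CXCL11 by the least with normexp (-0.24). Leaving out each cow gave -2.61 to -1.66 for CXCL9, -1.65 to -1.13 for CXCL10, -1.51 to -1.19 for CXCL11 and -0.71 to -0.24 for CXCR3. Values that moved by more than the spread between cows were those with normexp (CXCL11 -0.24, CXCL9 probe 2 -0.11), within slide 1 (CXCL9 -4.13, CXCL10 -2.66 and -2.73 by probes 1 and 2, CXCL11 -1.78), within slide 2 (CXCL9 -0.98 and -1.41 by probes 1 and 2, CXCL11 -0.93, CXCR3 -0.96) and on the 5 arrays low in smooth muscle genes (CXCL9 -1.11, CXCL11 -0.93). The cause was not tested; the subsets also hold fewer cows. The third CXCL10 probe, mostly not above background, turned to 0.27 within slide 3. Of the correlations, CXCL10 with CXCL11 turned to -0.0034 with normexp, and 4 relations of marker lists turned sign when a cow was left out, again with no cause tested. Over all such omissions the r ranged from -0.328 to 0.67 for the other interferon gamma induced genes with CXCL10, from -0.533 to 0.167 for macrophage genes with CXCL10, from -0.578 to 0.274 for smooth muscle genes with CXCL10 and from -0.057 to 0.579 for macrophage genes with CXCL11. With a replicate block CXCL9, CXCL10, CXCL11 and CXCR3 differed by -2.21, -1.43, -1.33 and -0.42, as without it. That was fixed in advance, since each number occurs once in each group, so it is no check of the differences. Of the samples, 5 of 8 correlated best with their own number. The deviations of same-numbered cows correlated at 0.367, 0.313, -0.332 and 0.287 for replicates 1 to 4, of which 1, 2 and 4 share a slide. In limma 0 probes passed the adjusted threshold under any setting. The count of probes lower with 5 mM without overlap was 163, and 71 with normexp. Leaving out each cow gave 257 to 784, with 784 without 0 mM replicate 1 and 762 when 5 mM replicate 2 was left out. Groups of fewer arrays separate more easily by chance, so these counts cannot be compared with 163. The count of probes that were 2-fold or more lower with an unadjusted p under 0.05 was 103, and 54 with normexp, 187 and 215 with slide or replicate blocks and 395 without 5 mM replicate 2. Summed over the 20 lists, the neighbours among them, 165 members were lower, and 129 to 180 under the alternatives. A gene was counted in each list that holds it. Over all genes tested 48.4% were lower. The lists were chosen with earlier results known, so nothing is read from this sum. Signal over background limits CXCL11, the second CXCL9 probe, the third CXCL10 probe, IFNG and CXCR3.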
